A study of Danio rerio with 4 samples.

Results

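The transcripts of the mitochondrial genome were described in single cells of adult zebrafish hearts (Danio rerio, genotype AB). The members were the 37 features of the gene table whose symbol starts with mt- or NC_002333, out of 31466 features in all. Of these, 13 carry the mt- symbols of protein-coding genes and 24 carry NC_002333 numbers, and no table used here gives those 24 a gene name. All animals received intrathoracic 4-thiouridine (4sU), a uridine analogue that enters newly made RNA, before the operation. The 2 cryoinjured libraries (6 hpci, hours post cryoinjury) came from hearts touched with a cooled probe, and the 2 sham libraries (6 hps, hours post sham) from fish whose pericardium was opened without the probe, both taken at 6 h. Each library pooled several hearts, so a library and not a cell is the replicate, and pooling hides the spread between fish. Where 4 values follow each other without names, they are those of sham 1, sham 2, cryoinjured 1 and cryoinjured 2. The counts are unique molecular identifiers (UMIs, 1 per captured RNA molecule) of labeled and unlabeled RNA together.

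The mitochondrial genome is a small circle that is copied into long RNAs from both strands, which are then cut apart, largely at the transfer RNAs lying between the genes. It encodes the 2 ribosomal RNAs of the mitochondrial ribosome, 22 transfer RNAs and 13 proteins, counts that the RefSeq gene list of assembly GRCz12tu also gives for zebrafish. All of these proteins are core subunits of the respiratory chain complexes and of the ATP synthase, and cardiomyocytes, which beat without rest, are among the cells richest in mitochondria. The 3' method used here primes on poly(A), which mitochondrial messenger and ribosomal RNAs carry in short form and mature transfer RNAs do not. A UMI is a tag per molecule and was not divided by gene length, so the order of the features below is an order of captured tags and not of RNA abundance.

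The libraries held 15971 to 23000 barcodes and 86891164 to 136777379 UMIs, of which 22074834 to 45009195 were mitochondrial. Cryoinjured replicate 2 stood apart from the other libraries in its mitochondrial level, and cryoinjured replicate 1 in its composition. Several group comparisons are therefore also given without one of them. Cryoinjured replicate 1 was also the only library with barcodes under 1000 UMIs, down to 500. The libraries shared 84 to 293 barcode strings pairwise, most between sham replicate 1 and cryoinjured replicate 1. In sham replicate 1 the 524 barcodes found in any other library held 15.1% of the UMIs, against 1.35% to 2.82% in the others.

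A single feature dominated the mitochondrial RNA. NC_002333.4 (ENSDARG00000080337) held 54.3% of the mitochondrial UMIs of the series, and NC_002333.17 (ENSDARG00000082753) another 4.06%. The share of NC_002333.4 was 55.4% and 55.7% in sham libraries, then 44.6% and 57.0% after cryoinjury. Only cryoinjured replicate 1 was low, and the groups overlapped. For NC_002333.17 the shares were 3.20%, 4.47%, 2.46% and 5.15% in the same order, with overlapping groups. The ratio of the first to the second was 17.3 and 18.12 in the replicates numbered 1 and 12.5 and 11.1 in those numbered 2, whatever the group, and the labels name no batch that would go with these numbers.

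The remaining 22 NC_002333 features were hardly captured at all. They held 1 to 301 UMIs each over the series. Together they made up 126, 561, 120 and 143 UMIs in the 4 libraries, at most 0.00145% of the mitochondrial UMIs. The NC_002333 share given below is therefore that of NC_002333.4 and NC_002333.17. The split into 2 captured and 22 hardly captured features matches the numbers of ribosomal and transfer RNA genes given above. Neither the identifiers nor any table used here names NC_002333.4 and NC_002333.17 as the ribosomal RNA genes, so they are called by number.

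Among the protein-coding features, the subunits of complex IV (cytochrome c oxidase), which passes electrons to oxygen, gave the most UMIs. Over the series mt-co2 held 13.9%, mt-co3 9.95% and mt-co1 1.99% of the mitochondrial UMIs. Next came mt-cyb, the cytochrome b of complex III, with 5.92%, and mt-atp6, a subunit of the proton channel of ATP synthase (complex V), with 5.33%. The 7 subunits of complex I (NADH dehydrogenase), the entry point for electrons from NADH, lay lower, from mt-nd1 with 1.53% and mt-nd4 with 1.29% through mt-nd2 with 0.847%, mt-nd3 with 0.613% and mt-nd5 with 0.189% to mt-nd4l with 0.0328%. The lowest were mt-atp8, the other ATP synthase subunit, with 0.0110% and mt-nd6, a complex I subunit encoded on the opposite strand from the other protein genes, with 0.0099%. The reading frames of mt-atp8 and mt-atp6 and those of mt-nd4l and mt-nd4 overlap on shared messages, so the values of these pairs are uncertain where reads could be split between them, and read assignment was not tested.

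**Figure D1:**
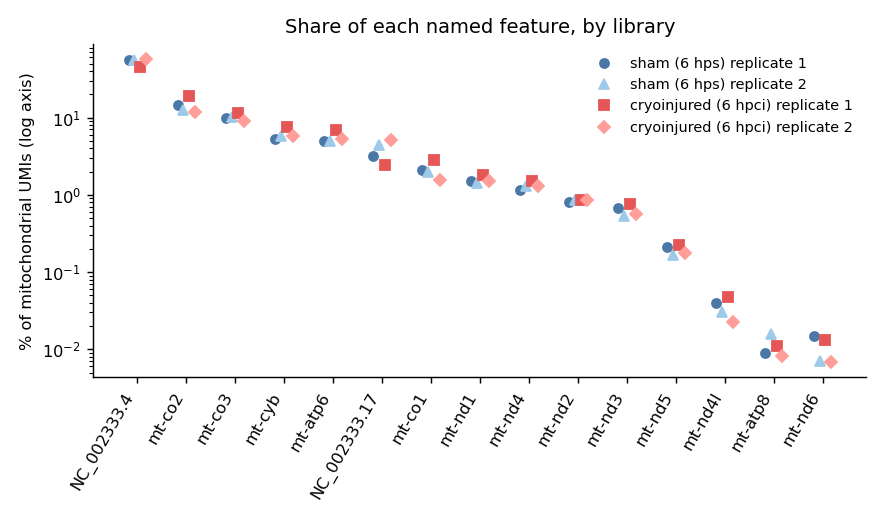
Share of the mitochondrial UMIs of a library held by each of the 15 named features, on a log axis, with 1 point per library. The order is nearly the same in all libraries, from NC_002333.4 (44.6% to 57.0%) to mt-nd6 (0.0068% to 0.0149%), and cryoinjured replicate 1 is the lowest for NC_002333.4 and the highest for mt-co2.

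Within the protein-coding UMIs the proportions were similar in all libraries. mt-co2 took 35.5%, 31.8%, 35.9% and 31.6% of them. These values followed the replicate number and not the group. mt-co3 took 24%, 25.7%, 21.8% and 23.6%, with both cryoinjured values below both sham values. mt-atp6 took 11.9%, 12.4%, 12.95% and 13.8%, with both cryoinjured values above. mt-atp8 took 0.0219%, 0.0397%, 0.0208% and 0.0218%, also with both cryoinjured values below. The other protein-coding features overlapped between groups. For mt-co3, mt-atp6 and mt-atp8 the exact two-sided permutation test gave p = 0.333, the smallest that 2 against 2 libraries allow. Random labels would separate the groups with that probability.

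To ask whether injury changed how much of a cell's RNA was mitochondrial, the share of all UMIs was compared between groups. It was 30.1% and 28.4% after sham surgery, against 25.4% and 39.2% after cryoinjury. The cryoinjured libraries were thus the lowest and the highest of the 4, and the group means, 29.2% ± 1.20 (SD, n = 2) for sham and 32.3% ± 9.77 (SD, n = 2) for cryoinjured, could not be told apart (exact two-sided permutation p = 1.00). Without cryoinjured replicate 2 the difference of +3.09 percentage points became -3.82, and without cryoinjured replicate 1 it became 10.0. Counting error was far smaller than these gaps, since the 95% Wilson intervals of the mitochondrial shares of libraries and classes were at most 0.288 points wide. These intervals treat UMIs as independent and do not cover the spread between barcodes, fish or libraries.

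Over all barcodes, the protein-coding part and the NC_002333 part did not follow the same order of libraries. The protein-coding features took 12.5% and 11.3% of all UMIs after sham surgery and 13.5% and 14.9% after cryoinjury. Both cryoinjured values lay above both sham values, by 2.28 points on average, with the smallest p possible (exact permutation p = 0.333). In the cell type gates described below, the groups were also apart in the ventricular, atrial and fibroblast gates (exact permutation p = 0.333 each). The gap was narrow in the atrial gate, with 13.80% in sham replicate 2 and 13.89% in cryoinjured replicate 2. In the fibroblast gate these libraries had 9.84% and 9.87%. The groups overlapped in the endocardial, smooth muscle, macrophage, neutrophil and erythrocyte gates. In erythrocytes the protein-coding shares were 5.74%, 5.76%, 9.12% and 5.66%. Over all barcodes the NC_002333 features took 17.6% and 17.1% after sham surgery and 11.9% and 24.4% after cryoinjury, at either end of the range. Their share of the mitochondrial UMIs was 58.6% and 60.2% in sham and 47.0% and 62.1% in cryoinjured libraries, means of 59.4% ± 1.12 and 54.6% ± 10.7 (SD, n = 2 each, exact permutation p = 1.00). Without cryoinjured replicate 1 this difference of -4.80 points turned to 2.76, and without cryoinjured replicate 2 it was -12.4.

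Barcodes with more than 50% mitochondrial UMIs were frequent. Sham replicate 1 had 20.0% of its barcodes above this line (19.46 to 20.6, Wilson limits at 95%), and sham replicate 2 had 18.4% (17.9 to 18.9). Cryoinjured replicate 1 had 15.7% (15.1 to 16.2), whereas cryoinjured replicate 2 had 46.4% (45.7 to 47.0). Over all barcodes the excess was therefore found in 1 cryoinjured library of 2, and the group difference of 11.8 points had an exact permutation p of 1.00. It was -3.53 points without cryoinjured replicate 2 and 27.2 points without cryoinjured replicate 1. Of the cell type gates tested below, only erythrocytes had both cryoinjured values above both sham values, with 0.189%, 0.110%, 1.03% and 3.39% (exact permutation p = 0.333). The Wilson limits there were 0.033 to 1.06 and 0.019 to 0.62 in the sham libraries. They overlapped those of cryoinjured replicate 1, 0.60 to 1.75, and not those of cryoinjured replicate 2, 2.65 to 4.32. With barcodes above 50% left out, the mitochondrial share of UMIs was 26.6%, 25.5%, 23.6% and 25.4%. Protein-coding transcripts alone passed 50% of the UMIs in only 2, 4, 87 and 12 barcodes, of which the 87 belonged to cryoinjured replicate 1.

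**Figure D2:**
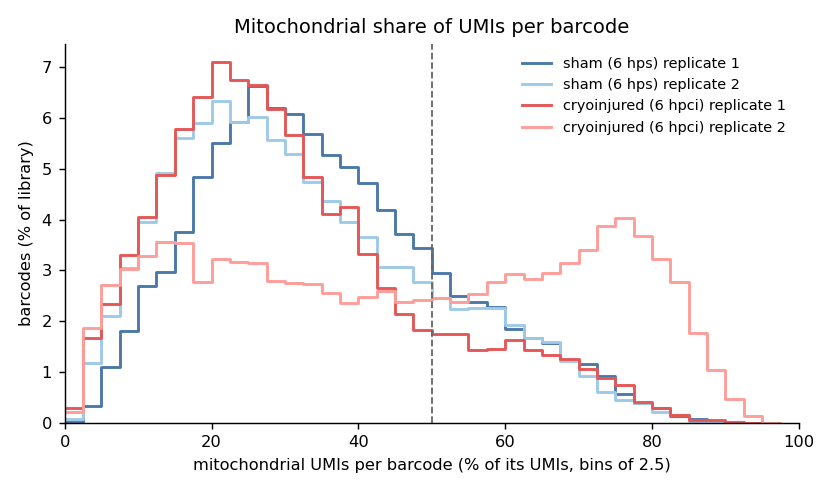
Distribution of the mitochondrial share of UMIs over the barcodes of each library, in bins of 2.5 percentage points, with the dashed line at 50%. Cryoinjured replicate 2 has a second mode above 50%, which holds 46.4% of its barcodes, whereas the other libraries have 15.7% to 20.0% above the line.

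To compare cell types, barcodes were gated by marker genes, none of them mitochondrial. Of the 78127 barcodes, 40942 fell into exactly 1 of 8 gates that had at least 50 barcodes in every library. Cardiomyocytes were divided into a ventricular gate (18949 barcodes) and an atrial gate (10989 barcodes). The ventricular gate rested on myh7l and tnni4a, since the other markers of its list were absent from the gene table or, as hey2, had at most 14 UMIs per library in the gate, so its name is that of these 2 genes. Between the chamber limits lay 3586 to 8853 cardiomyocyte barcodes per library, which entered neither gate. The cardiomyocyte limits were wide, since 16235 of 19622, 14591 of 19534, 8865 of 15971 and 15958 of 23000 barcodes met them. They asked for 5% pan-cardiomyocyte marker UMIs of the non-mitochondrial UMIs. The median barcode at or below 50% mitochondrial UMIs already held 12.4%, 11.7%, 8.41% and 11.3%. The part of free RNA in passing these limits was not tested. The other gates were erythrocyte (4536), endocardial (2590), macrophage (1597), fibroblast (873), smooth muscle (865) and neutrophil (543). Barcodes above 50% were gated less often than the others in every library, 28.1% to 54.9% against 48.2% to 69.2%, and had fewer non-mitochondrial UMIs, a median of 360 to 754 against 1850 to 2835. At a given depth the cut itself lowers this count. Medians of all UMIs were 1035 to 2185 against 2471 to 3793.5.

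Of the 8 gates, the cardiomyocyte gates had the highest mitochondrial levels in every library and erythrocytes the lowest. In sham replicate 1 the atrial and neutrophil gates were nearly equal (29.45% and 29.37%). With barcodes above 50% left out the ventricular gate was no longer above all non-cardiomyocyte gates, with 26.5% in sham replicate 1 and 23.96% in cryoinjured replicate 1 against 28.0% and 24.9% in neutrophils, while erythrocytes stayed lowest of the 8. In the ventricular gate the mitochondrial share of UMIs was 33.6% and 32.6% in sham and 26.9% and 51.1% in cryoinjured libraries. In the atrial gate it was 29.4% and 34.2% in sham and 28.6% and 39.2% in cryoinjured libraries. Ventricular exceeded atrial in 2 of 4 libraries, so the order of these gates on this scale was not settled (difference 3.20 points, SD 6.43, exact sign-flip p = 0.50).

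In the endocardial gate, the lining of the heart chambers, the share was 25.1%, 19.6%, 20.7% and 26.0%. The ventricular share was higher in 4 of 4 libraries, by 13.2 points (SD 8.46, n = 4 libraries), with the smallest p of this test (exact sign-flip p = 0.13). Erythrocytes, which are nucleated in fish, had 15.3%, 14.2%, 17.4% and 15.8%, all below every value of the other 7 gates. Both cryoinjured values lay above both sham values there and in smooth muscle (25.18%, 17.9%, 25.21% and 26.7%). The exact permutation p was 0.333 in each, the smallest possible, and the groups overlapped in the rest of the 8 gates. The epicardial gate, not among the 8 for its 39 barcodes in cryoinjured replicate 1, had 19.7%, 16.7%, 14.7% and 14.2%. Macrophages had 27.2%, 23.1%, 24.4% and 26.7%, and the ranges of the macrophage, neutrophil, fibroblast, smooth muscle and endocardial gates overlapped.

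Cardiomyocyte RNA was present in all gates, so the mitochondrial UMIs were also set against it. The pan-cardiomyocyte markers took a median of 0.860% to 2.102% of the non-mitochondrial UMIs of erythrocyte barcodes and 1.601% to 4.26% of those of macrophage barcodes, against 11.9% to 14.9% in the ventricular gate. Per UMI of these markers the ventricular gate held 3.32, 3.34, 3.04 and 6.66 mitochondrial UMIs. Macrophages held 5.51, 5.56, 6.78 and 14.9, and erythrocytes 7.06, 5.86, 8.22 and 12.5. The markers in the denominator also define the cardiomyocyte gates, so a lower ratio there follows from the gating, and the values are a description. The part of free RNA in the level of each gate was not tested.

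**Figure D3:**
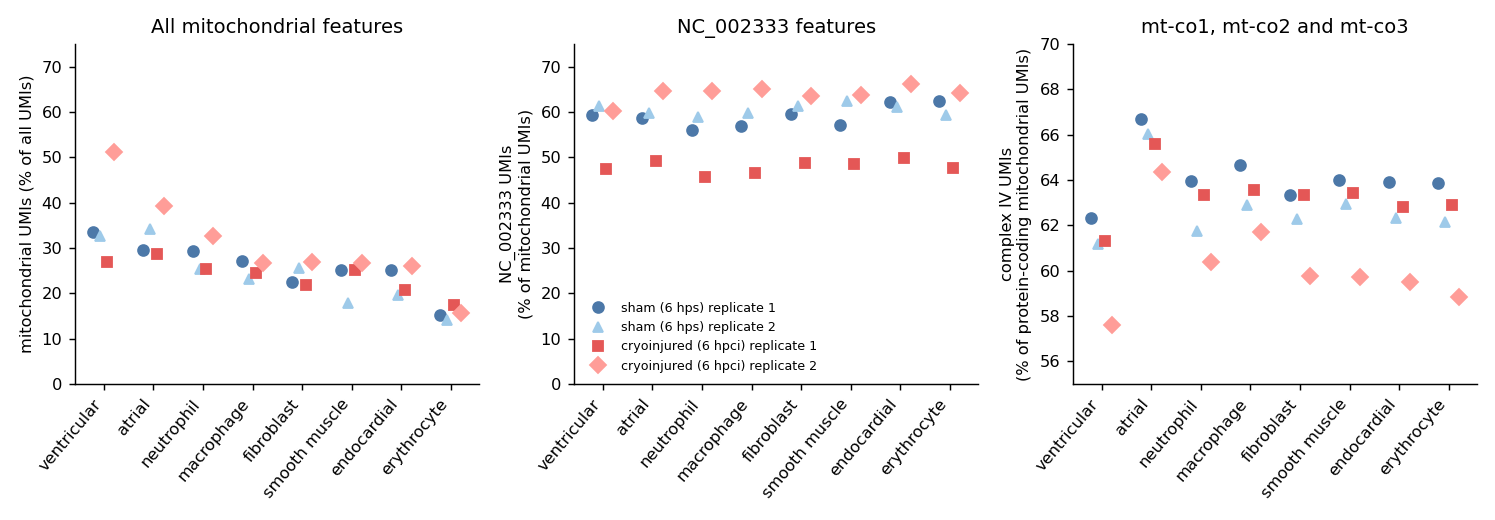
Mitochondrial UMIs as a percentage of all UMIs (left), NC_002333 UMIs as a percentage of mitochondrial UMIs (middle) and UMIs of the 3 complex IV genes as a percentage of protein-coding mitochondrial UMIs (right, axis from 55 to 70) in 8 marker gates, 1 point per library. Erythrocytes are lowest in level (14.2% to 17.4%), the composition in the middle follows the library, and the atrial gate is highest and the ventricular gate lowest for complex IV in each library.

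The NC_002333 share was set apart in 1 library, in all cell types alike. Over the 8 gates it ran from 56.0% to 62.4% in sham replicate 1, from 58.9% to 62.3% in sham replicate 2, from 45.7% to 49.9% in cryoinjured replicate 1 and from 60.2% to 66.1% in cryoinjured replicate 2. Every gate of cryoinjured replicate 1 lay below every gate of the other libraries. Among the other 3 libraries the ranges of the gates overlapped. The ventricular and atrial gates did not differ in it beyond their spread (difference -0.96 points, SD 2.61, ventricular lower in 2 of 4 libraries, exact sign-flip p = 0.625).

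The balance between the respiratory complexes differed between the chambers in the same direction in every library. Of the protein-coding mitochondrial UMIs, the complex IV genes took 66.7%, 66.0%, 65.6% and 64.3% in the atrial gate and 62.3%, 61.2%, 61.3% and 57.6% in the ventricular gate,. In each library the atrial gate had the highest and the ventricular gate the lowest value of the 8 gates. Complex I ran the other way, with 9.58%, 9.59%, 9.04% and 9.64% in the atrial gate and 12.02%, 11.4%, 10.6% and 12.3% in the ventricular gate, the lowest and the highest of the 8 gates in each library. Erythrocytes came close to the ventricular gate in complex I, with 11.7%, 11.2%, 10.4% and 12.1%. The gate next above the atrial one had 10.6%, 10.3%, 9.52% and 10.9%. The ATP synthase genes also separated the chambers in each library, with 11.1% to 12.4% in the atrial and 12.9% to 14.4% in the ventricular gate.

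Ventricular minus atrial differences were 2.12 points for complex I (SD 0.503), 1.81 for the ATP synthase genes (SD 0.208), 1.13 for mt-cyb (SD 0.780) and -5.06 for complex IV (SD 1.15), each with the same sign in 4 of 4 libraries. The exact sign-flip p was 0.13 for each, the smallest it can be with 4 libraries, and 0.25 after Benjamini-Hochberg adjustment over 10 measures. The complex shares, like the shares by gene below, add up to the whole of the protein-coding UMIs. A lower complex IV share therefore raises the others, and they are not separate results. By gene, 9 of 13 took a larger share in the ventricular gate in all 4 libraries and 3 a smaller one, which were mt-co1, mt-co2 and mt-co3. mt-nd2 took 2.33%, 2.36%, 1.82% and 2.44% of the protein-coding UMIs in the ventricular and 1.62%, 1.82%, 1.44% and 1.77% in the atrial gate. mt-nd6 was the exception, with a larger share in 3 of 4 libraries.

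The same features were then tested as levels, with UMIs summed per library and gate and all genes in the fit (edgeR quasi-likelihood, TMM scaling, library as a block, Benjamini-Hochberg adjustment over 9889 genes). Against the atrial gate, 11 of the 16 mitochondrial features tested were higher in the ventricular gate at an adjusted p under 0.05 and 0 were lower. Of all genes tested, 11.2% were called higher and 11.6% lower, 22.8% in all. The median log2 fold change of the 16 was 0.60, beside -0.0045 over all genes. All 7 complex I genes were called, with the largest difference of the named features for mt-nd2.

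The level of mt-nd2 was 0.319%, 0.298%, 0.257% and 0.496% of all UMIs in the ventricular gate and 0.197%, 0.251%, 0.209% and 0.245% in the atrial gate. It was higher in the ventricular gate of every library, with a TMM-scaled log2 fold change of 0.84 (SE 0.16, edgeR adjusted p = 0.00061). The other complex I genes had log2 fold changes from 0.47 (mt-nd6) to 0.70 (mt-nd3). mt-atp6 was higher by 0.62 (SE 0.16, edgeR adjusted p = 0.0069), mt-atp8 by 0.57 and mt-cyb by 0.53 (SE 0.16, edgeR adjusted p = 0.023). The features that did not pass were mt-co1 (0.34), mt-co2 (0.31, 95% interval -0.03 to 0.64), mt-co3 (0.28, -0.05 to 0.62), NC_002333.4 (0.36, 0.01 to 0.70) and NC_002333.17 (0.39). The eleventh call was NC_002333.14, outside the rule for named features and given after its values were seen, with 9 to 61 UMIs per ventricular and 6 to 20 per atrial sum.

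These calls were sensitive to how the gates were scaled and filled. By library size alone 5 features were called, beside 5.4% of all genes called higher. They were mt-nd1, mt-nd2, mt-nd3, mt-nd4 and mt-nd5, and the median of all genes moved to -0.29 while that of the mitochondrial features was 0.32. With barcodes above 50% left out, mt-nd2 alone of 16 was called, beside 11.9% of all genes called higher, and the median was 0.19. Such barcodes made up 24.2%, 22.3%, 16.2% and 60.4% of the ventricular gate and 14.1%, 16.1%, 9.33% and 30.9% of the atrial gate, more in the ventricular gate each time. The call count was 6 without sham replicate 1, 4 without sham replicate 2, 12 without cryoinjured replicate 1 and 7 without cryoinjured replicate 2, where 8.98%, 10.7%, 9.2% and 8.72% of all genes were called higher, and mt-nd2 passed in each of these fits.

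Against the endocardial gate, all 15 mitochondrial features tested were higher in the ventricular gate (edgeR, adjusted over 8624 genes), where 27.4% of all genes were called higher and 27.7% lower, 55.2% in all. Scaled to the mitochondrial UMIs, which removes a common level, 0 of the 15 were called, beside 71% of all genes. An unadjusted p under 0.05 in edgeR was found for 0 of them. Against the atrial gate 0 of 16 were called, beside 23.5%, although the complex shares given above differed there with the same sign in every library. The 0 calls of this scaling therefore do not show an equal composition. With TMM scaling, the log2 fold changes against the endocardial gate ran from 1.20 (NC_002333.4, SE 0.22, edgeR adjusted p = 0.00017) to 1.49 (mt-nd2, SE 0.19, edgeR adjusted p = 3.0e-06). Their median was 1.40, beside -0.09 over all genes. mt-co2 took 4.70%, 3.96%, 4.95% and 6.23% of all UMIs in the ventricular gate and 3.34%, 2.40%, 3.67% and 2.80% in the endocardial gate,. The gates did not overlap for this gene. All 15 were also called by library size alone (15.4% of all genes higher), with barcodes above 50% left out (27.1%) and without any single library. DESeq2 called 12 of the 36 features with UMIs higher, beside 2193 of 20245 genes. NC_002333.4, mt-co2 and mt-co3, the 3 features with the most mitochondrial UMIs, were not among the 12.

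**Figure D4:**
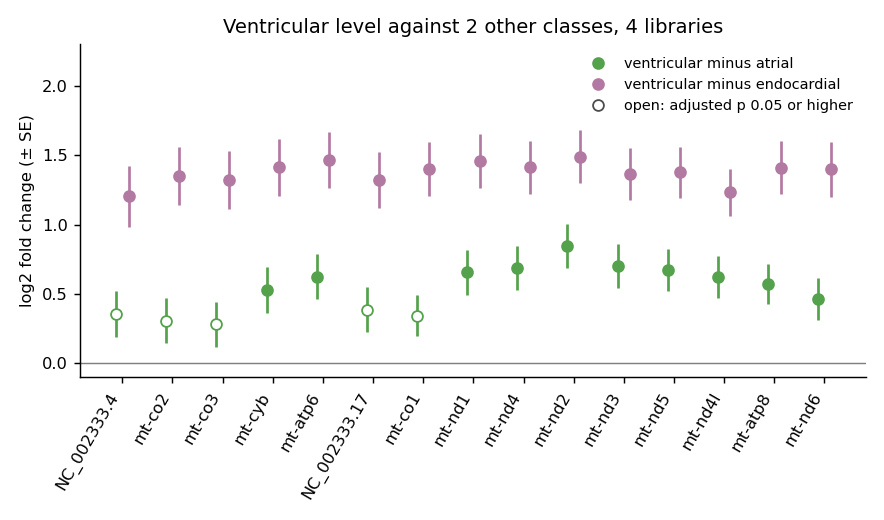
Log2 fold change (± SE) of each named feature in the ventricular gate against the atrial gate (green) and the endocardial gate (purple), from edgeR fits over 4 libraries, with open symbols for an adjusted p of 0.05 or higher. Against the endocardial gate all features lie between 1.20 and 1.49, whereas against the atrial gate the complex I genes lie between 0.47 and 0.84 and the complex IV genes between 0.28 and 0.34.

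The nuclear genes that work with the mitochondrial genome were placed beside it, in the fits with TMM scaling alone. Of 98 tested nuclear genes of the respiratory chain and ATP synthase, 35 were higher and 0 lower in the ventricular than in the atrial gate, with a median log2 fold change of 0.31, where 11.2% of all genes were higher. Of 74 genes of the mitochondrial ribosome, 20 were higher and 0 lower (median 0.17). Of 26 genes of mitochondrial transcription and RNA processing, 1 was higher and 0 lower (median 0.06), a share under that of all genes. This one was lrpprc, which stabilises mitochondrial messenger RNAs in mammals, with a log2 fold change of 0.55 (SE 0.15, edgeR adjusted p = 0.0074). For tfam, the factor that packages mitochondrial DNA and starts its transcription, the value was -0.00 (SE 0.13, edgeR adjusted p = 1.00), and for polrmt, the mitochondrial RNA polymerase, -0.50 (SE 0.31, edgeR adjusted p = 0.29). Against the endocardial gate, 96 of 98, 70 of 74 and 11 of 21 tested genes of these lists were higher. Lower were 2, 0 and 1, where 27.4% of all genes were higher. There lrpprc was higher by 1.62 on the log2 scale (SE 0.25, edgeR adjusted p = 2.8e-05). The value for tfam was 1.18 (SE 0.28, edgeR adjusted p = 0.0015), and polrmt went the other way, with -0.93 (SE 0.48, edgeR adjusted p = 0.11). Scaled by library size alone, tfam was at 13.7, 14.95, 14.8 and 12.8 in ventricular sums. In endocardial sums it was at 9.89, 22.7, 6.90 and 4.65 on the same scale, so sham replicate 2 ran against the fold change.

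Between sham and cryoinjured libraries, no mitochondrial feature was called in any of the 8 gates (edgeR, adjusted p under 0.05), and no gene of any kind was either, so the background was 0%. With the replicate number as a block, 10 of 15 features were called higher in smooth muscle, beside 5.8% of all genes, and 2 of 15 in the atrial gate, beside 0.843%, with 0 in the other 6 gates. In the ventricular gate 7 of 16 features had an unadjusted p under 0.05, as did 4% of all genes (371 of 9274). The median log2 fold change of the 16 was 0.94 beside -0.02 over 9274 genes, and 15 of 16 were above 0. mt-cyb was at 1.74% and 1.81% of all UMIs in the sham and 2.02% and 3.19% in the cryoinjured ventricular sums, both cryoinjured values above both sham values. Its log2 fold change was 1.21 (SE 0.39, 95% interval 0.30 to 2.12, edgeR adjusted p = 0.82). This was the highest of the 16, and the interval is not adjusted for their number. mt-co2 was at 4.70% and 3.96% in sham and 4.95% and 6.23% in cryoinjured sums (log2 fold change 0.99, SE 0.32, edgeR adjusted p = 0.82). These fold changes are TMM-scaled whereas the percentages are of all UMIs, so the measures differ in scale. Without cryoinjured replicate 2 the median was 0.15.

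The ventricular count was sensitive to single libraries. Without cryoinjured replicate 1, 10 of 16 features were called higher, beside 0.364% of all genes, with a median of 1.43. In any fit without 1 library of a group the remaining one is assumed to vary like the other group. Scaled by library size alone, the median of the ventricular features was 0.28 while that of all genes moved to -0.56, with 0 calls. With barcodes above 50% left out the median was 0.35, with 0 calls, and DESeq2 also gave 0 calls.

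In the other gates the median log2 fold change between groups was 0.73 in the atrial gate, 0.74 in smooth muscle, 0.69 in erythrocytes, 0.56 in the endocardial gate, 0.45 in macrophages, 0.44 in fibroblasts and 0.25 in neutrophils. By library size alone these medians were 0.095, 0.30, 0.24, 0.028, 0.025, 0.0088 and 0.036 in the same order, while the median of all genes lay between -0.65 and -0.13, so most of each value depended on the scaling. The numbers of features with an unadjusted p under 0.05 were 9, 7, 8, 0, 0, 3 and 0 of 15, beside 7.72%, 9.63%, 4.66%, 2.72%, 2.3%, 6.04% and 1.31% of all genes. In erythrocytes 12 features were called higher without cryoinjured replicate 1 (2.62% of all genes) and 5 without cryoinjured replicate 2 (0.476%). In smooth muscle 5 were called higher without sham replicate 1 (0.847%), and in neutrophils 1 without cryoinjured replicate 1 (2.45%). The change did not differ detectably between chambers. The interaction of group and gate called 0 of 16 features (0 with an unadjusted p under 0.05 in edgeR, 0 called in DESeq2). Differences (ventricular minus atrial) ran from -0.20 to 0.22 on the log2 scale, with standard errors of 0.27 to 0.61. Their median was 0.075, against 0.62 without cryoinjured replicate 1 and -0.38 without cryoinjured replicate 2.

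Nuclear partners of the ventricular gate had no call either. Of 99 nuclear respiratory chain and ATP synthase genes 95 were above 0 between groups, with a median log2 fold change of 0.51 beside -0.02 over 9274 genes. By library size alone the median of all genes moved to -0.56, a scale on which the nuclear lists were not read. Of 74 mitochondrial ribosome genes 53 were above 0, with a median of 0.22, and of 25 transcription and RNA processing genes 9 were above 0, with a median of -0.28.

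The last comparison asked whether barcodes above 50% mitochondrial UMIs held the same kinds of mitochondrial RNA as the rest, which the threshold on the total does not fix. Their NC_002333 share of mitochondrial UMIs was 57.9%, 57.9%, 45.3% and 60.3%. In the barcodes at or below 50% it was 58.8%, 60.7%, 47.2% and 64.5%. It was lower above the line in 4 of 4 libraries, by 2.45 points (SD 1.41, exact sign-flip p = 0.13, the smallest possible). Near the line, barcodes of 40% to 50% had 59.7%, 60.6%, 48.5% and 62.4%, and barcodes of 50% to 60% had 58.6%, 58.9%, 46.0% and 61.2%. Over the whole range the share did not fall steadily, with 69.0%, 70.3%, 58.7% and 77.4% in barcodes under 10% mitochondrial UMIs and 55.8%, 60.5%, 42.9% and 70.3% in those of 10% to 20%, where sham replicate 1 and cryoinjured replicate 1 lay below their share above 50%.

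The split at 50% was also made within the 2 cardiomyocyte gates, the only ones so divided. In the ventricular gate the NC_002333 share was 56.8%, 58.0%, 44.1% and 59.2% above 50% and 60.8%, 62.2%, 48.3% and 63.6% at or below it. The 4 libraries gave nearly the same difference, -4.25 points on average with an SD of 0.178 (exact sign-flip p = 0.13, 0.375 after adjustment over 6 measures). In the atrial gate the shares were 59.3%, 59.3%, 47.6% and 63.3% above and 58.7%, 59.8%, 49.2% and 65.2% at or below the line, lower in 3 of 4 libraries (-0.86 points, SD 1.16, exact sign-flip p = 0.375). Median UMIs per ventricular barcode were 2507, 2588, 1599 and 2696 above and 2710, 3840, 2826 and 2451 at or below the line, so depth differed in both directions.

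**Figure D5:**
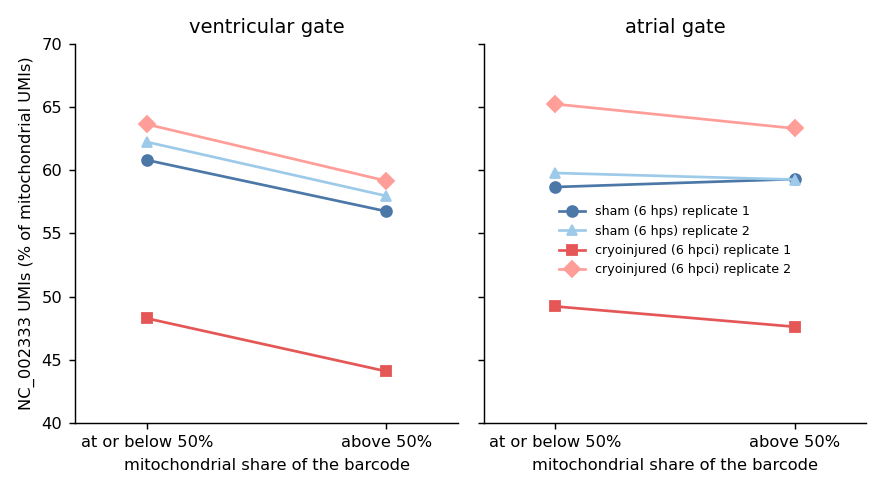
NC_002333 share of mitochondrial UMIs in barcodes at or below and above 50% mitochondrial UMIs, in the ventricular gate (left) and the atrial gate (right), with 1 line per library and an axis from 40 to 70. All 4 ventricular lines fall, by 4.25 points on average, whereas the atrial lines fall in 3 of 4 libraries, by 0.86 points on average.

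Complex I genes took a larger part of the protein-coding UMIs above the line in every library, 11.7%, 11.55%, 10.7% and 12.2% against 10.4%, 10.7%, 9.74% and 10.9%. Complex IV genes took a smaller part, 63.2%, 61.9%, 62.3% and 58.3% against 64.8%, 62.6%, 63.1% and 60.7%. Ventricular barcodes made up 16.1% to 44.7% of the barcodes above it and 15.0% to 26.6% of those at or below it. Within the ventricular gate the complex I part was still higher above the line in 4 of 4 libraries (0.46 points, SD 0.151), as it was within the atrial gate (0.79 points, SD 0.461), while the complex IV part was lower in 3 of 4 libraries in each.

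The mitochondrial level also fell with the depth of a barcode. In barcodes of 500 to 1500 UMIs the mitochondrial share was 40.5%, 37.8%, 36.8% and 50.7%, and in barcodes of at least 30000 UMIs 23.99%, 23.9%, 21.1% and 29.7%,. Cryoinjured replicate 2 was the highest in both classes of depth and cryoinjured replicate 1 the lowest. The NC_002333 share of mitochondrial UMIs moved with depth as well, but not steadily. It was 69.3%, 68.5%, 56.1% and 67.4% in barcodes of 500 to 1500 UMIs. In those of 5000 to 10000 it was 56.7%, 56.9%, 43.6% and 60.8%. At 30000 UMIs or more the share was 54.1%, 61.3%, 49.997% and 62.2%, higher again in all libraries but sham replicate 1. In every depth class it was lowest in cryoinjured replicate 1. The part of depth in the differences between gates, groups and the sides of the 50% line was not tested.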

How the data were processed

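The deposited values were UMI counts per gene and barcode that the authors made from 3' droplet libraries with Cell Ranger 4.0.0 on GRCz11 (both also in the submitters' processing notes), without normalization. No barcode had fewer than 500 UMIs. Samples were grouped by the titles in the labels. Members, gene lists and tests were chosen with earlier results of these data known. Named features were all mt- features and NC_002333 features with at least 0.1% of mitochondrial UMIs, and lrpprc, tfam and polrmt.

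Gates were set after the marker distributions were seen. Cardiomyocytes needed at least 5% pan-cardiomyocyte marker UMIs of the non-mitochondrial UMIs and 5 chamber marker UMIs, and were ventricular or atrial when at least 0.8 or at most 0.2 of these were ventricular. Erythrocytes needed 30% of their list, other gates 5 times the library's share, each with 3 markers. Barcodes in several gates were left out and no doublet caller was run. Of the gated lists, epicardial, blood vessel endothelial, thrombocyte and lymphocyte barcodes were too few in at least 1 library. Barcodes above 50% mitochondrial UMIs were kept, since removing them would cut the outcome.

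Sums per library and gate were tested with edgeR 4.0.16 (filterByExpr, TMM, robust quasi-likelihood, threshold 0.05), with DESeq2 1.42.0 as an alternative. SE is the absolute log2 fold change over the square root of F. The fits were tested on simulated data, with the outcome not reported here. With 2 libraries in each group, a lack of calls between groups does not show a lack of change. Per the study's methods, libraries are independent pools of hearts. Intervals cover counting error only. No coordinates or sequences were used. Composition measures per complex and the gates of the barcodes above 50% were chosen after the data were seen.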

Additional observations from a re-analysis of the deposited data

How the results depend on the processing

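Differences are cryoinjured minus sham, in percentage points, unless named otherwise. With barcodes above 50% left out, the difference in mitochondrial share turned to -1.49. Leaving out 1 library gave -3.82 to 10.0 for the mitochondrial share, -12.4 to 2.76 for the NC_002333 share, -3.53 to 27.2 for the share of barcodes above 50%, and -2.98 to -1.86 for the NC_002333 share above against at or below 50%. Calls between groups without 1 library ran from 0 to 10 in the ventricular gate, 0 to 5 in smooth muscle, 0 to 1 in neutrophils and 0 to 12 in erythrocytes, and stayed at 0 in the other gates. Without a filter on low counts 6 of 35 ventricular features were called higher, beside 36 higher and 10 lower of 19599 genes. In erythrocytes 3 of 25 were called higher, beside 15 higher and 4 lower of 15325 genes. Ventricular against atrial calls, 11 as reported, were 5 by library size alone, 0 scaled to mitochondrial UMIs, 7 by DESeq2, 1 with barcodes above 50% left out and 4 to 12 without 1 library. DESeq2 took in 36 mitochondrial features there and called 830 of 21352 genes higher. Ventricular against endocardial calls, 15 as reported, fell to 0 when scaled to mitochondrial UMIs, which removes a common level by construction, and NC_002333.4 (-0.077) and mt-nd4l (-0.043) changed sign there. The causes of the other changes were not tested. Chosen after the data were seen were the alternatives of the difference between chambers, all with 0 calls, the restriction of the comparison at 50% to 1 gate, and leaving out barcode strings found in another library, which gave 2.51, -5.20 and 11.8 for the 3 group differences and -2.70 for the comparison at 50%.

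The replicate numbers could not be shown to pair the libraries, since there are only 2 pairs and no label names a shared batch. The study treats the libraries as replicate pairs and calls them experimentally independent. Deviations of same-numbered libraries correlated across genes from -0.39 (neutrophils) to 0.46 (macrophages), with 0.20 in the ventricular gate. With the replicate number as a block, 2 atrial and 10 smooth muscle features were called higher (0.843% and 5.8% of all genes), and 0 in the other 6 gates. The differences in shares were again 3.09, -4.80 and 11.8. With 2 pairs this is fixed, since the mean paired difference equals the difference of group means.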
